A study of Mus musculus with 10 samples.

Results

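Sarcomere and Z-disc genes other than the myosins were followed in cardiomyocytes on day 4 after myocardial infarction (MI). The 44 genes were chosen by symbol for what their proteins do, as parts of the thin filament, the thick filament and M-band, the Z-disc with its desmin and LIM proteins, and the ankyrin repeat proteins, methyltransferase and ubiquitin ligases that attend them. Each matched 1 of the 51789 Ensembl genes of the count table, and all 44 had enough counts to be among the 15232 genes tested. No member reached an adjusted p under 0.10 in TgGRK5-MI against NLC-MI cardiomyocytes (edgeR, DESeq2 and limma-voom). By edgeR, Flnc and Neb, which encode filamin C and nebulin, were the members with an unadjusted p under 0.05, beside 3.85% of all genes. Each had a lower mean in TgGRK5-MI and 1 NLC-MI library far above the rest. Limma-voom gave 5 such members, Flnc but not Neb among them, beside 11.9% of all genes.

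NLC-MI cells came from 5 non-transgenic littermate control mice and TgGRK5-MI cells from 5 mice that carry a GRK5 transgene active in cardiomyocytes. Mice of either genotype had undergone MI, so no sham-operated mouse was compared here. The surgery was done in young adult mice of either sex. The promoter of the transgene and the sex and age of each animal behind a library are not given in the sources used here. Each library stood for 1 mouse, and values listed for a group below follow the order of replicates 1 to 5.

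The sarcomere is the contractile unit of striated muscle, in which thick filaments of myosin pull on thin filaments of actin. Tropomyosin and the troponin complex (troponins C, I and T) open and close the actin filament to myosin as calcium rises and falls. Thin filaments are anchored at the Z-disc, where alpha-actinin, titin, filamin C and many adaptor proteins meet, while the M-band holds the thick filaments in register. Several of the genes have skeletal or fetal counterparts, such as skeletal alpha-actin (Acta1) beside cardiac alpha-actin (Actc1), and a shift toward the fetal form is a classical sign of cardiac stress.

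The libraries held 7968779 to 23381527 counts, and levels are given as CPM, counts scaled to a common library size with TMM factors that correct for RNA composition. Grk5, the gene the transgene carries, lay between 46.5 and 73.1 CPM across NLC-MI libraries and between 552 and 1700.4 CPM across TgGRK5-MI libraries, so every library matched its label. Defining cardiomyocyte transcripts were abundant, with Myh6 at 29594 ± 13319 CPM for NLC-MI against 21179.9 ± 6789 CPM for TgGRK5-MI (SD, n = 5 each). Markers of other cells were present too, and the summed level of 5 fibroblast markers ranged from 3059 to 18542 CPM. In such a preparation fewer cells of a type and less RNA per cell cannot be told apart.

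The members spanned a wide range of levels, compared here as mean CPM over 10 libraries per kilobase of annotated exon. Actc1 stood highest at 9471, followed by Tnnc1 (cardiac troponin C) at 3427, Tnni3 (cardiac troponin I) at 2014, the stress-responsive ankyrin repeat gene Ankrd1 at 1928, Tpm1 (alpha-tropomyosin) at 1838, Tnnt2 (cardiac troponin T) at 1419 and Des (desmin, the intermediate filament of muscle) at 1324. These 7 genes were thus the bulk of the set per length, and 5 of them are thin filament genes. At the other end lay the skeletal forms: Tnni1 (slow skeletal troponin I) at 0.217, Neb at 0.267, Myoz1 (myozenin 1) at 0.464 and Myom3 (myomesin 3) at 0.779 CPM per kilobase. All 44 together took 8.61 ± 1.18% of counts for NLC-MI against 8.59 ± 1.10% for TgGRK5-MI (SD, n = 5 each), a share that ran from 6.84% to 9.92% over the libraries.

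**Figure D1:**
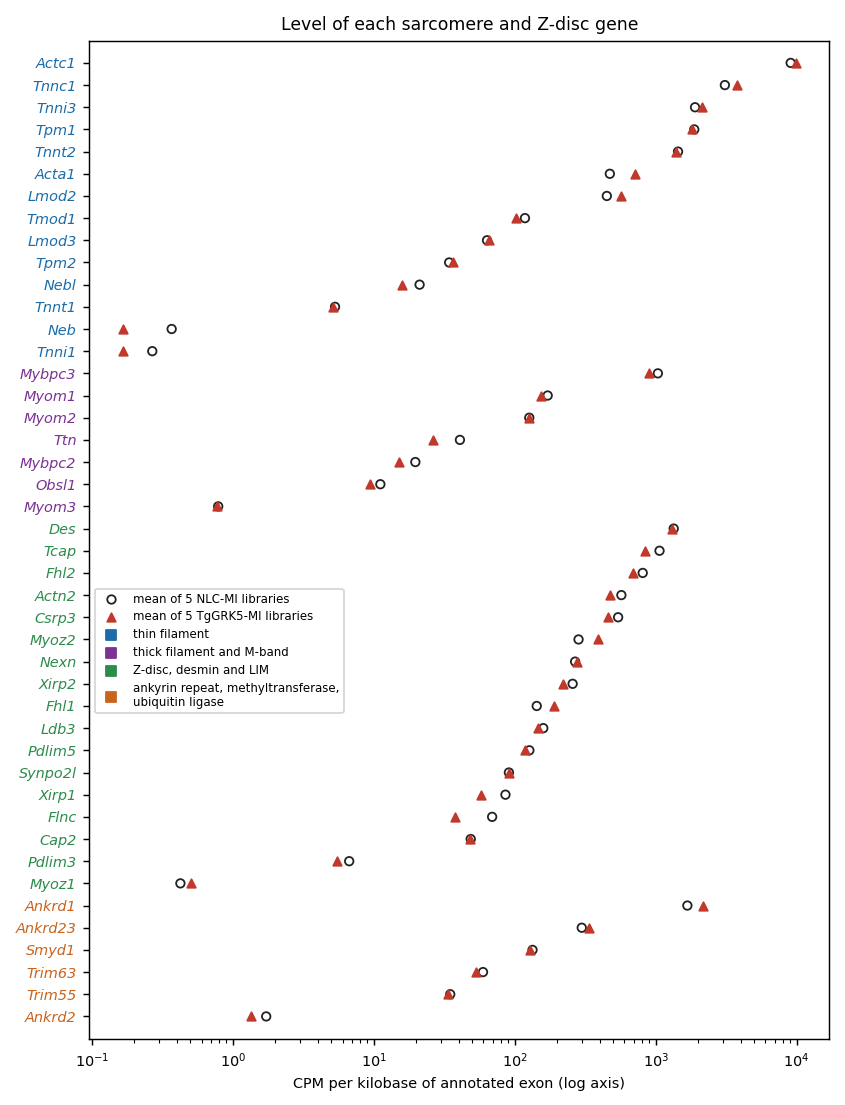
Level of each of the 44 genes, as mean CPM per kilobase of annotated exon on a log axis, with open circles for the 5 NLC-MI and red triangles for the 5 TgGRK5-MI libraries and gene names coloured by role. The symbols of the groups nearly coincide for most genes, over a range that runs from 0.217 for Tnni1 to 9471 for Actc1 as the mean of all 10 libraries.

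Mice of the same group differed from each other. Between the highest and the lowest library a member varied by 1.71 times (Tpm1) to 12.7 times (Myoz1), with 8.04 times for Neb and 6.03 times for Tcap. The median member had a within-group SD of 0.49 on the log2 CPM scale, against 0.39 for all genes tested. TgGRK5-MI replicate 2 was the lowest library for 13 members and NLC-MI replicate 1 for 10, whereas NLC-MI replicates 4 and 5 were the highest for 11 each. In NLC-MI replicate 1 only 4 of the 44 members, and in TgGRK5-MI replicate 2 only 7, lay above their own mean over the libraries. Those libraries also held summed fibroblast marker levels of 17727 and 18542 CPM, next to 18149.6 CPM in NLC-MI replicate 2, 10761 CPM in TgGRK5-MI replicate 1 and 3059 to 7663 CPM in the other 6. Between the groups the fibroblast sum was 9858 ± 7437 CPM for NLC-MI against 9286 ± 5834 CPM for TgGRK5-MI (exact permutation p = 0.929, n = 5 each), and its part in the spread of the members was not tested. The 5 leukocyte markers summed to 759.9 ± 380.2 CPM for NLC-MI against 1009 ± 308 CPM for TgGRK5-MI (exact permutation p = 0.294, n = 5 each), and all 5 had estimates above 0, from 0.09 to 0.54 on the log2 scale. The 4 atrial markers tested had estimates below 0, from -0.04 to -1.27. Myl7, the atrial myosin light chain, had an unadjusted p of 0.0406 by edgeR and an exact permutation p of 0.143. The atrial markers summed to 2488 ± 1075 CPM for NLC-MI against 2375 ± 1134 CPM for TgGRK5-MI (exact permutation p = 0.833, n = 5 each). Most of that sum was Nppa, at 2395 CPM for NLC-MI against 2330 CPM for TgGRK5-MI. The paper also measured Nppa with cardiac hypertrophy, and the sum says little about the other atrial markers. Bmp10, another atrial gene, stood at 30.9 CPM in NLC-MI replicate 5 and 5.64 CPM in TgGRK5-MI replicate 1, and under 0.05 CPM in the other 8 libraries. Sln, Myl7 and Myl4 were also highest in NLC-MI replicate 5, at 13.8, 64.0 and 79.4 CPM. Nppa went the other way there, with the lowest level of its group at 1020 CPM. The 6 cardiomyocyte markers, with Myh6 the largest part, summed to 46439 ± 19875 CPM for NLC-MI against 34253 ± 9551 CPM for TgGRK5-MI (exact permutation p = 0.349, n = 5 each). Of these markers 5 had estimates below 0. For the sums of the smooth muscle and pericyte, endothelial, erythroid and skeletal muscle markers the exact permutation p was 0.405, 0.960, 0.944 and 0.127 (n = 5 each). The part of these cells in the members' values was not tested either.

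**Figure D2:**
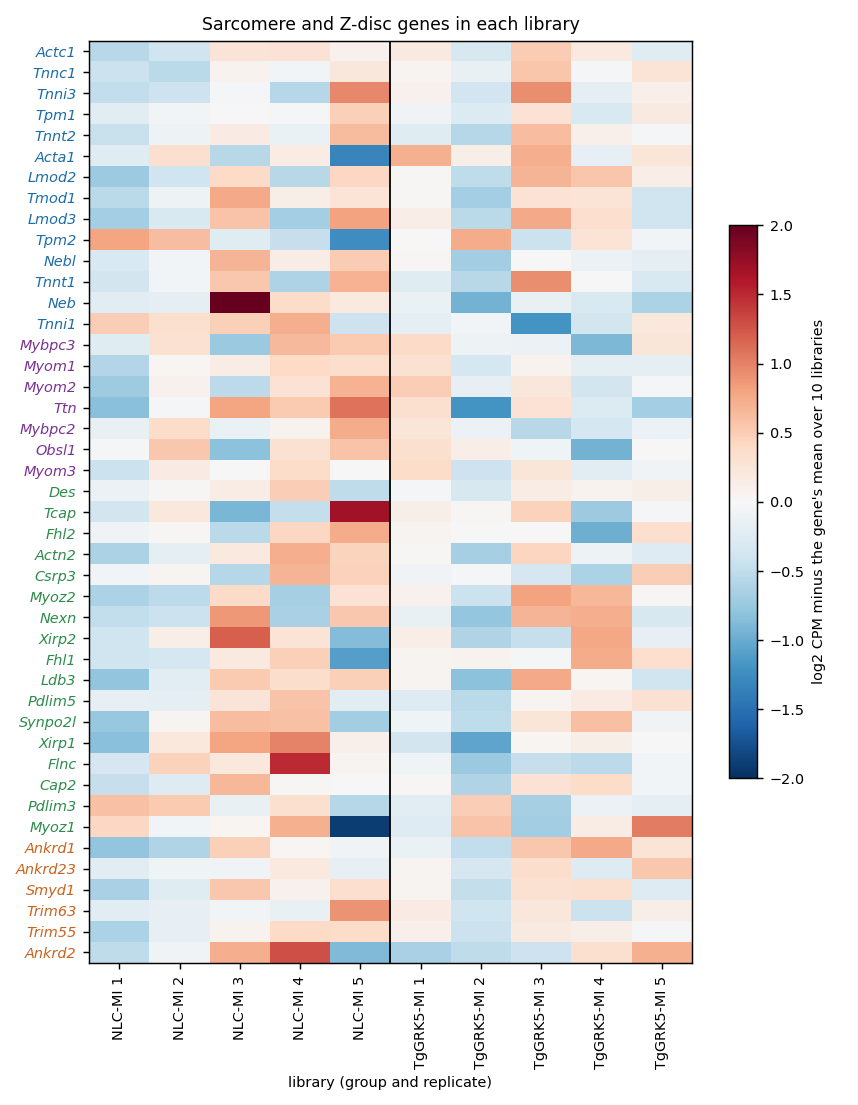
Heat map of the 44 genes (rows, names coloured by role) in the 10 libraries (columns, with a line between NLC-MI and TgGRK5-MI), showing log2 CPM minus the mean of the gene over the libraries, from blue (lower) to red (higher). NLC-MI replicate 1 and TgGRK5-MI replicate 2 are mostly blue, and no row changes colour as a whole at the line between the groups.

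In the comparison of TgGRK5-MI with NLC-MI, 2 of the 44 members had an unadjusted p under 0.05, both lower in TgGRK5-MI, by edgeR's quasi-likelihood test (two-sided). Over all 15232 genes 3.85% had such a p in either direction, and the members' 2 of 44 was near that share. With a lower level in TgGRK5-MI alone, where both members lay, the share over all genes was 2.08%. A count of 2 is small for comparing shares. With Benjamini-Hochberg adjustment over all genes, 0 members had an adjusted p under 0.10 by edgeR, where 0.0788% of all genes, 12 in number, were called. DESeq2 also called 0 members, beside 0.397% of all genes, and gave 2 members an unadjusted p under 0.05, beside 2.97% of all genes. By limma-voom 0 members were called, beside 0.328% of all genes, and 5 had an unadjusted p under 0.05, beside 11.9% of all genes. By edgeR the adjusted p of every member rounded to 1.00. In the 7 libraries of at least 15000000 counts, 0 members had an unadjusted p under 0.05 by edgeR, beside 3.26% of all genes. The edgeR unadjusted p there was 0.0768 for Flnc and 0.0506 for Neb. In 0 members did all 5 libraries of one group lie above all 5 of the other, against 1.00% of genes.

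The fold changes of the members ran from -1.12 (Neb) to 0.59 (Acta1) on the log2 scale, with TgGRK5-MI over NLC-MI, and had a median of -0.06 beside 0.00127 for all genes. The estimate was above 0 for 15 members and below 0 for 29 (65.9%), against 49.8% below 0 among the 15204 tested genes with an annotated length. The precision limits what could be seen: the median SE of a member was 0.31, against 0.24 for all genes. For 28 of 44 members the 95% interval lay within -1 and 1 on the log2 scale, compared with 75.9% of all genes. For the other members a change of that size in at least 1 direction lay inside the interval.

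**Figure D3:**
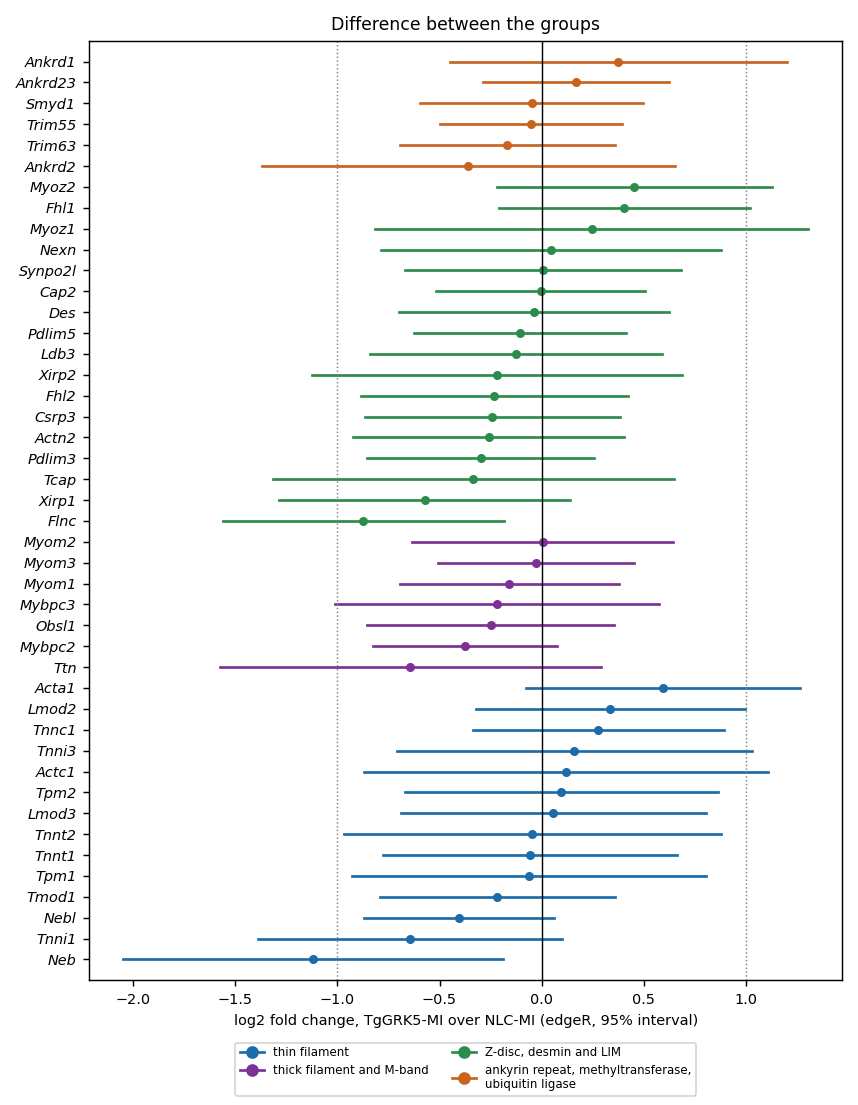
Log2 fold change of TgGRK5-MI over NLC-MI for the 44 genes from edgeR, with points for the estimates, bars for the 95% intervals, colours for the 4 roles and dotted lines at -1 and 1. The intervals of Flnc and Neb alone leave out 0.

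Among the 14 thin filament genes 7 had estimates above and 7 below 0, and their median log2 fold change was 0.00525. Neb was the gene of this role with an unadjusted p under 0.05. Actc1 (chr2:114047282-114053548, strand - in GRCm38), the main actin of the adult heart, measured 10135, 11273, 17834, 18329 and 15871 CPM in NLC-MI replicates 1 to 5, and 16816, 11991, 21275, 17124 and 12590.2 CPM in TgGRK5-MI replicates 1 to 5. Its highest library was TgGRK5-MI replicate 3 and its lowest NLC-MI replicate 1, and the groups overlapped. Its log2 fold change was 0.12 (SE 0.45, edgeR unadjusted p = 0.796, exact permutation p = 0.571). Acta1 (chr8:123891769-123894751, strand -), the skeletal actin that is also made in the fetal and the stressed heart, measured 719, 1053, 577, 943 and 340.3 CPM in NLC-MI replicates 1 to 5, and 1395, 921, 1406, 756 and 999 CPM in TgGRK5-MI replicates 1 to 5. It had the largest positive fold change of the set, with means of 727 ± 285 CPM for NLC-MI against 1095 ± 292 CPM for TgGRK5-MI (SD, n = 5 each) and a log2 fold change of 0.59 (SE 0.31, 95% interval -0.08 to 1.26, edgeR unadjusted p = 0.0775, exact permutation p = 0.0952). Its lowest level was in NLC-MI replicate 5, and 2 NLC-MI libraries (replicates 2 and 4) lay above the lowest TgGRK5-MI library (replicate 4).

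The promoters of these actin genes are shown because each holds a CArG box, the element bound by serum response factor that is known for driving muscle actins. RefSeq promoter windows (GRCm38.p6) were found for 36 of the 44 members. The 150 bases before the RefSeq start are printed 5′ to 3′ on the strand of the gene, in lower case with the CArG box in capitals, for Acta1 (chr8:123894776-123894925, strand -) and Actc1 (chr2:114052876-114053025, strand -).
Acta1: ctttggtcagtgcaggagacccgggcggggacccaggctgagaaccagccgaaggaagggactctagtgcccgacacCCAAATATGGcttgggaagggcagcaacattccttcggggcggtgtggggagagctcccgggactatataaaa
Actc1: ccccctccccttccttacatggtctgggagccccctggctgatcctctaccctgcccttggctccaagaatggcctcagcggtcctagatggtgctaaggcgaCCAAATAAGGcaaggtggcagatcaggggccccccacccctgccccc
The box of Acta1 spans bases -73 to -64 and that of Actc1 bases -47 to -38, where -1 is the last base before the RefSeq start. These starts differ from the GENCODE gene ends given above, so the distances hold for RefSeq alone. The Actc1 window lies inside the GENCODE span of the gene, which reaches 114053548. The Acta1 window lies outside that of Acta1, which ends at 123894751, and does not adjoin it.

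Over the 250 bases before each start, searched on both strands, a CArG box was in 9 of the 49 windows of the members (18.4%) and in 1.47% of all 32851 windows. The 9 windows belong to 7 of the 36 members with windows. Windows of a gene can overlap, and a box found in more than 1 of them is printed once. A MEF2 motif, the element of another muscle transcription factor, was in 8 of the 49 (16.3%) and in 2.92% of all windows. CATTCC, the letters of the muscle CAT element, were in 12 windows (24.5%, 12.6% of all), and TATAAA, searched on the strand of the gene alone, in 4 (8.16%, 7.59% of all). Besides the actins, the CArG box was before a start of Myom1 (chr17:71019443-71019482, strand +), Ldb3 (chr14:34588692-34588731, strand -), Fhl1 (chrX:56779566-56779605, strand +), Nebl (chr2:17462994-17463033, strand -) and 2 starts of Fhl2 (chr1:43196833-43196872, strand -, and chr1:43163968-43164007, strand -, in the order printed). To show how the box varies, 40 bases around it are printed in the same way.
Myom1: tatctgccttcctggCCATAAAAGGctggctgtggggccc
Ldb3: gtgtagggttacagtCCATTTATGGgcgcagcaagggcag
Fhl1: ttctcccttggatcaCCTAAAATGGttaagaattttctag
Fhl2: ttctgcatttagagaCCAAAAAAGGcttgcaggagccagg
Fhl2: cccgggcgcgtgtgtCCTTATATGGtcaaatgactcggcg
Nebl: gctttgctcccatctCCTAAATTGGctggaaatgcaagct
The estimates of the 7 members with the box lay on either side of 0. Their log2 fold changes were 0.59 for Acta1, 0.40 for Fhl1, 0.12 for Actc1, -0.13 for Ldb3, -0.16 for Myom1, -0.23 for Fhl2 and -0.41 for Nebl. A match of letters is a description of the window, not evidence of binding.

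Neb (chr2:52136647-52378474, strand -), whose giant protein runs along the thin filament of skeletal muscle and is scarce in heart, measured 5.07, 5.18, 24.2, 7.65 and 6.81 CPM in NLC-MI replicates 1 to 5, and 5.37, 3.01, 5.30, 4.74 and 3.76 CPM in TgGRK5-MI replicates 1 to 5. NLC-MI replicate 3 stood far above the other 9 libraries, which all lay at or under 7.65 CPM, and the groups overlapped. The means were 9.78 ± 8.14 CPM for NLC-MI against 4.44 ± 1.02 CPM for TgGRK5-MI (SD, n = 5 each), with a log2 fold change of -1.12 (SE 0.43, 95% interval -2.05 to -0.19, edgeR unadjusted p = 0.0226, exact permutation p = 0.0476). Without NLC-MI replicate 3 the log2 fold change was -0.48 (edgeR unadjusted p = 0.0658). Without TgGRK5-MI replicate 2 it was -1.0 (edgeR unadjusted p = 0.0517). With limma-voom it was -0.46 (unadjusted p = 0.117). Seen after the values were known, the same NLC-MI library held the fast skeletal myosins Myh1, Myh2 and Myh4 at 6.41, 4.97 and 3.40 CPM, where no other library exceeded 0.264, 0.108 and 0.108 CPM. Of the 8 skeletal muscle markers examined, 4 (these myosins and Atp2a1) were highest in it and 4 (Actn3, Mylpf, Tnnt3 and Tnni2) were not. Their summed level ran from 6.74 to 34.5 CPM in NLC-MI and from 6.61 to 16.6 CPM in TgGRK5-MI, and their part in the Neb value was not tested. The same library, the shallowest of the 10, also held the haemoglobin genes Hbb-bs and Hba-a1 at 145 and 58.1 CPM, where no other library exceeded 19.3 and 6.41 CPM.

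Nebl encodes nebulette, the short cardiac relative of nebulin at the Z-disc end of the thin filament. It measured 221, 262, 436, 303 and 388 CPM (NLC-MI) and 276, 168, 275, 253 and 242 CPM (TgGRK5-MI), with NLC-MI replicates 3 and 5 highest and overlap between the groups. The log2 fold change was -0.41 (SE 0.21, edgeR unadjusted p = 0.0808, exact permutation p = 0.151), the smallest p among thin filament genes after Neb and Acta1. Estimates for the main cardiac troponins and tropomyosin lay between -0.06 and 0.28. Tnnt2, whose protein fixes the troponin complex to tropomyosin, measured 7814, 9915, 11902, 9721 and 16518 CPM (NLC-MI) and 8943, 7169.7, 16327, 11346 and 10313 CPM (TgGRK5-MI), and its log2 fold change was -0.05 (SE 0.42, edgeR unadjusted p = 0.914, exact permutation p = 0.810). Tnni3 measured 2746, 2915, 3820.2, 2595 and 7553 CPM (NLC-MI) and 4082, 2949.6, 7345, 3403 and 4137 CPM (TgGRK5-MI), and was highest in 1 library of each group, NLC-MI replicate 5 and TgGRK5-MI replicate 3. Its log2 fold change was 0.16 (SE 0.40, edgeR unadjusted p = 0.697, exact permutation p = 0.516).

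Tnnc1, which encodes the calcium sensor of the filament, measured 2595, 2397, 3676, 3363 and 4099 CPM (NLC-MI) and 3633, 3156, 5111, 3444 and 4201 CPM (TgGRK5-MI). All values lay within 2.13 times of each other, and the log2 fold change was 0.28 (SE 0.28, edgeR unadjusted p = 0.343, exact permutation p = 0.175). Tpm1, the least variable member, measured 10019.8, 11367, 11754, 11401 and 16365 CPM (NLC-MI) and 11228, 9756, 14428, 9561 and 13302 CPM (TgGRK5-MI) with its highest level in NLC-MI replicate 5. Its log2 fold change was -0.06 (SE 0.40, edgeR unadjusted p = 0.875, exact permutation p = 0.698). Of the remaining thin filament genes, which encode the caps and nucleators of actin filaments, Lmod2 (leiomodin 2) ranged over 574 to 1528 CPM with a log2 fold change of 0.33, Lmod3 over 82.7 to 233 CPM with 0.06, and Tmod1 (tropomodulin 1) over 259 to 703 CPM with -0.22.

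A shift between adult cardiac and skeletal or fetal forms was examined as the share that the minor form took of the joint counts of its pair in each library, a ratio that does not depend on the scaling. In none of the 5 pairs did the exact permutation test of the share reach an unadjusted p under 0.05. Of the joint Acta1 and Actc1 counts, Acta1 took 6.63, 8.54, 3.14, 4.89 and 2.10% in NLC-MI replicates 1 to 5, and 7.66, 7.13, 6.20, 4.23 and 7.35% in TgGRK5-MI replicates 1 to 5. Its mean share was 5.06 ± 2.60% for NLC-MI against 6.51 ± 1.39% for TgGRK5-MI (SD, n = 5 each, exact two-sided permutation p = 0.310, 0.774 adjusted over the 5 pairs). NLC-MI replicate 2 had the highest share and NLC-MI replicate 5 the lowest, so the TgGRK5-MI values all lay within the NLC-MI range. Tnni1 was a trace beside Tnni3, at 1.06, 0.931, 1.05, 1.27 and 0.524 CPM (NLC-MI) and 0.626, 0.698, 0.261, 0.539 and 0.859 CPM (TgGRK5-MI), which rest on 3 to 27 counts per library. As a share that was 0.0307 ± 0.0155% for NLC-MI against 0.0158 ± 0.00769% for TgGRK5-MI (SD, n = 5 each, exact two-sided permutation p = 0.103, 0.516 adjusted over the 5 pairs), and its level gave a log2 fold change of -0.64 (SE 0.34, 95% interval -1.39 to 0.10, edgeR unadjusted p = 0.0839, exact permutation p = 0.0714).

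Tnnt1 (slow skeletal troponin T) measured 8.28, 10.4, 15.6, 6.94 and 17.3 CPM (NLC-MI) and 9.08, 7.29, 20.5, 10.7 and 8.64 CPM (TgGRK5-MI), with TgGRK5-MI replicate 3 and NLC-MI replicate 5 highest. Its share beside Tnnt2 was 0.103 ± 0.0211% for NLC-MI against 0.101 ± 0.0154% for TgGRK5-MI (SD, n = 5 each, exact two-sided permutation p = 0.817, 0.817 adjusted over the 5 pairs), the most even of the pairs between the groups, and its log2 fold change was -0.06 (SE 0.33, edgeR unadjusted p = 0.866, exact permutation p = 0.889). Tpm2 (beta-tropomyosin) measured 164, 145, 80.3, 68.8 and 40.1 CPM (NLC-MI) and 95.7, 159.7, 70.4, 115 and 91.6 CPM (TgGRK5-MI), and took a share beside Tpm1 of 0.879 ± 0.548% for NLC-MI against 0.963 ± 0.445% for TgGRK5-MI (SD, n = 5 each, exact two-sided permutation p = 0.770, 0.817 adjusted over the 5 pairs). Its log2 fold change was 0.10 (SE 0.35, edgeR unadjusted p = 0.789, exact permutation p = 0.627), and in NLC-MI replicate 5 it was lowest where Tpm1 was highest. Mybpc2 (fast skeletal myosin-binding protein C) measured 55.1, 79.2, 55.5, 64.3 and 102 CPM (NLC-MI) and 72.5, 56.1, 41.5, 47.6 and 56.5 CPM (TgGRK5-MI). Beside Mybpc3, its cardiac relative, it took 1.73 ± 0.474% for NLC-MI against 1.54 ± 0.447% for TgGRK5-MI (SD, n = 5 each, exact two-sided permutation p = 0.50, 0.817 adjusted over the 5 pairs), and its log2 fold change was -0.38 (SE 0.21, edgeR unadjusted p = 0.0924, exact permutation p = 0.135).

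The 7 thick filament and M-band genes had a median log2 fold change of -0.22, with estimates below 0 for 6 of them, and 0 had an unadjusted p under 0.05 by edgeR (0 also by DESeq2 and by limma-voom). Ttn (chr2:76703980-76982547, strand -), whose protein titin spans from Z-disc to M-band as a molecular spring, measured 1957, 3394, 6023, 5041 and 7445 CPM in NLC-MI replicates 1 to 5, and 4386, 1532, 4284, 2893 and 2184 CPM in TgGRK5-MI replicates 1 to 5. The lowest library was TgGRK5-MI replicate 2 and the highest NLC-MI replicate 5, and the groups overlapped. The means were 4772 ± 2157 CPM for NLC-MI against 3056 ± 1263 CPM for TgGRK5-MI (SD, n = 5 each), with a log2 fold change of -0.64 (SE 0.43, 95% interval -1.57 to 0.29, edgeR unadjusted p = 0.158, exact permutation p = 0.206), an interval that leaves room for a large decrease as well as for none. Mybpc3, which tunes the myosin heads and is often mutated in hypertrophic cardiomyopathy, measured 3209.9, 4695, 2261, 5959 and 5458 CPM (NLC-MI) and 4946, 3541, 3519, 2033 and 4499.6 CPM (TgGRK5-MI), and its log2 fold change was -0.22 (SE 0.36, edgeR unadjusted p = 0.556, exact permutation p = 0.548).

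The myomesins crosslink thick filaments at the M-band. Myom1 measured 1105, 1709, 1837, 2181 and 2126 CPM (NLC-MI) and 2063, 1305, 1736, 1449 and 1473 CPM (TgGRK5-MI), and its log2 fold change was -0.16 (SE 0.25, edgeR unadjusted p = 0.532, exact permutation p = 0.524). Myom2 measured 657, 1148, 748, 1309 and 1751 CPM (NLC-MI) and 1521, 966, 1265, 835 and 1042 CPM (TgGRK5-MI), and its log2 fold change was 0.00397 (SE 0.29, edgeR unadjusted p = 0.989, exact permutation p = 0.833), the estimate closest to 0 in the set. Myom3 ranged over 3.39 to 5.99 CPM with a log2 fold change of -0.03, and Obsl1 (obscurin-like 1) over 42.8 to 123 CPM with -0.25.

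Of the 17 Z-disc, desmin and LIM genes 5 had estimates above and 12 below 0, with a median log2 fold change of -0.13. Flnc (chr6:29433256-29461883, strand +), which encodes an actin crosslinker of Z-disc and sarcolemma that is also recruited to damaged myofibrils, measured 359, 621, 527, 1274 and 469 CPM in NLC-MI replicates 1 to 5, and 425, 272, 328, 315 and 434 CPM in TgGRK5-MI replicates 1 to 5. NLC-MI replicate 4 held the highest level, and NLC-MI replicates 2, 3 and 5 also lay above all 5 TgGRK5-MI libraries, whereas NLC-MI replicate 1 lay among them. The means were 650.1 ± 362 CPM for NLC-MI against 355 ± 71.6 CPM for TgGRK5-MI (SD, n = 5 each), with a log2 fold change of -0.87 (SE 0.31, 95% interval -1.56 to -0.19, edgeR unadjusted p = 0.0171, exact permutation p = 0.0317). Without NLC-MI replicate 4 the log2 fold change was -0.48 (edgeR unadjusted p = 0.0485). Beside the 1.00 of edgeR, the adjusted p of Flnc was 0.528 by DESeq2 and 0.379 by limma-voom.

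**Figure D4:**
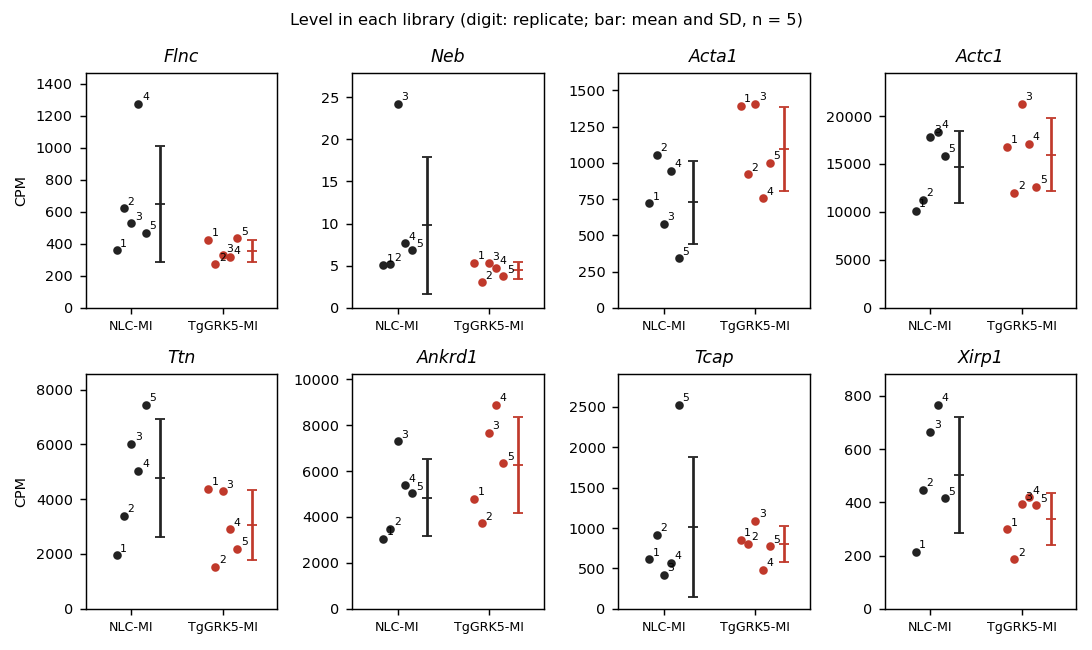
CPM of 8 members in each library, with NLC-MI in black and TgGRK5-MI in red, digits for the replicate and bars for the mean and SD of 5 libraries on axes that start at 0. Flnc stands high in NLC-MI replicate 4, Neb in NLC-MI replicate 3 and Tcap in NLC-MI replicate 5, while the groups overlap in every panel.

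Xirp1 encodes Xin, an actin-binding repeat protein that partners with filamin C. It measured 215, 448, 665, 767 and 415 CPM (NLC-MI) and 298, 187, 395, 419 and 389 CPM (TgGRK5-MI), highest in NLC-MI replicates 4 and 3, and had a log2 fold change of -0.57 (SE 0.33, 95% interval -1.28 to 0.14, edgeR unadjusted p = 0.104, exact permutation p = 0.222). Its relative Xirp2 ranged over 1434 to 5973 CPM with a log2 fold change of -0.22. Des measured 4520.3, 4977, 5409, 6863 and 3435 CPM (NLC-MI) and 4743, 3897, 5449, 5137 and 5290.0 CPM (TgGRK5-MI), and its log2 fold change was -0.04 (SE 0.30, edgeR unadjusted p = 0.897, exact permutation p = 0.968). Tcap (telethonin), which caps titin at the Z-disc, measured 614, 919, 419, 570.4 and 2526 CPM (NLC-MI) and 854, 801, 1092, 479 and 775 CPM (TgGRK5-MI), with NLC-MI replicate 5 above all other libraries. Its log2 fold change was -0.34 (SE 0.45, edgeR unadjusted p = 0.471, exact permutation p = 0.921), and without that library the estimate was 0.34.

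Myoz2 encodes calsarcin-1, a Z-disc protein that binds calcineurin. It measured 698, 755, 1402, 681 and 1318 CPM (NLC-MI) and 1144, 804, 1891, 1703 and 1103 CPM (TgGRK5-MI), and had a log2 fold change of 0.45 (SE 0.31, 95% interval -0.22 to 1.13, edgeR unadjusted p = 0.169, exact permutation p = 0.206), the next-largest positive estimate after Acta1. The LIM genes went in different directions. Fhl1, known for its part in mechanical stress signalling with titin, measured 442, 460.0, 672, 813 and 273 CPM (NLC-MI) and 609, 617, 579, 980.4 and 736 CPM (TgGRK5-MI), and its log2 fold change was 0.40 (SE 0.28, edgeR unadjusted p = 0.176, exact permutation p = 0.159). Its lowest library was NLC-MI replicate 5 and its highest TgGRK5-MI replicate 4. Fhl2, a partner of titin and of several transcription factors, measured 1292, 1381, 934, 1813 and 2258 CPM (NLC-MI) and 1414, 1353, 1364, 691 and 1719 CPM (TgGRK5-MI), and its log2 fold change was -0.23 (SE 0.30, edgeR unadjusted p = 0.455, exact permutation p = 0.50).

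The other Z-disc members had unadjusted p values of 0.265 (Pdlim3) or more. Actn2, the alpha-actinin that crosslinks actin at the Z-disc, ranged over 1204 to 3141 CPM with a log2 fold change of -0.26. The PDZ-LIM genes gave -0.13 for Ldb3 (Cypher), -0.30 for Pdlim3 and -0.11 for Pdlim5, and Csrp3, which encodes muscle LIM protein, gave -0.24. Estimates for Nexn (nexilin), Synpo2l and Cap2 were 0.05, 0.01 and -0.00583. Myoz1 was low, at 0.131 to 1.66 CPM, and gave 0.24.

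The last 6 genes encode ankyrin repeat proteins, a methyltransferase and ubiquitin ligases, and had a median log2 fold change of -0.05, with 0 at an unadjusted p under 0.05 by edgeR (0 also by DESeq2 and by limma-voom). Ankrd1, which binds titin and also acts in the nucleus, is a well-known gene of cardiac stress. It measured 3039, 3483, 7298, 5382 and 5026 CPM in NLC-MI replicates 1 to 5, and 4798, 3721, 7656, 8890.4 and 6346 CPM in TgGRK5-MI replicates 1 to 5. Its highest library was TgGRK5-MI replicate 4 and its lowest NLC-MI replicate 1, the groups overlapped, and it had a log2 fold change of 0.37 (SE 0.38, 95% interval -0.45 to 1.2, edgeR unadjusted p = 0.342, exact permutation p = 0.262). Ankrd23 measured 721, 793, 803, 961 and 754 CPM (NLC-MI) and 869.9, 668, 1074, 701 and 1218 CPM (TgGRK5-MI), and its log2 fold change was 0.17 (SE 0.21, edgeR unadjusted p = 0.437, exact permutation p = 0.476). Its value is uncertain, since 75.0% of its 50-base transcript windows also occur in other genes, nearly all of them in Gm42417 on the same strand. Smyd1, a methyltransferase needed for myofibril assembly, measured 368, 488, 842, 613 and 729 CPM (NLC-MI) and 599, 416, 718, 721 and 483 CPM (TgGRK5-MI), and its log2 fold change was -0.05 (SE 0.25, edgeR unadjusted p = 0.846, exact permutation p = 0.889).

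The muscle ubiquitin ligases Trim63 (MuRF1) and Trim55 (MuRF2) mark sarcomere proteins for degradation. Trim63 ranged over 115 to 288 CPM with a log2 fold change of -0.17, and Trim55 over 57.2 to 118 CPM with -0.05. Ankrd2, mainly a skeletal muscle gene, was low at 0.785 to 3.89 CPM and gave -0.36.

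A relation with gene length, looked for after the values were seen, ran through the set. The 22 members with the shorter annotated exon sequence (948 to 3754 bases) had a median log2 fold change of 0.08, with 10 of 22 below 0 (45.5%). The 22 longer ones (3795 to 116825 bases) had a median of -0.19, with 19 of 22 below 0 (86.4%). Ttn, Neb, Nebl, Xirp2 and Myom1 were the longest members, and all 5 had estimates below 0. Over the 44 members Spearman's rho of length and log2 fold change was -0.445, and -0.325 without Ttn, Neb and Flnc. Genes in general leaned the same way, with a rho of -0.207 over the 15204 tested genes with an annotated length and medians of 0.05 and -0.04 for the shorter and the longer ones, of which 41.4% and 58.1% were below 0. The genes share their 10 libraries and are not independent, and rho stayed between -0.531 and -0.364 for the members in the 18 alternative fits, each library left out in turn among them.

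**Figure D5:**
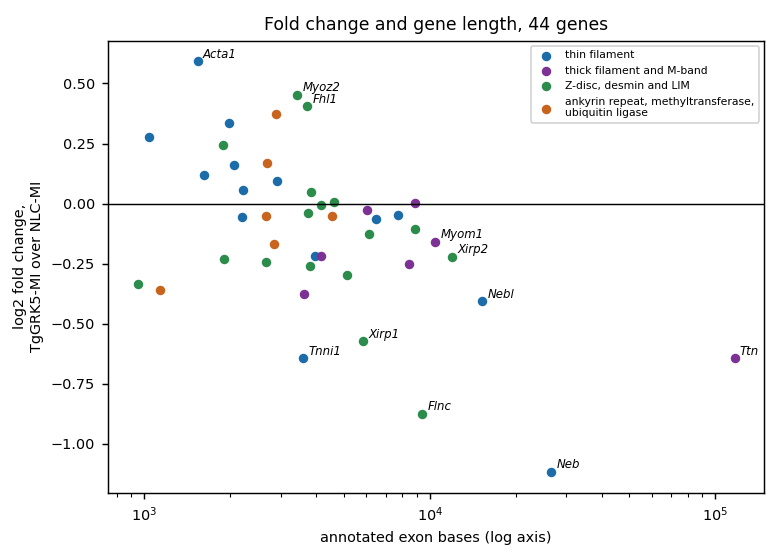
Log2 fold change of TgGRK5-MI over NLC-MI (edgeR, vertical axis) against annotated exon bases (horizontal log axis) for the 44 genes, coloured by role. The points slope downward, with Acta1 among the short genes at 0.59 and Neb and Ttn at the long end at -1.12 and -0.64.

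For comparison, 44 other genes of the sarcomere, Z-disc and their chaperones were taken from a list, and 41 of them were tested. By edgeR 6 had an unadjusted p under 0.05, of which Pdlim1 was higher in TgGRK5-MI (0.51 log2) and Palld (-0.44), Synm (-0.42), Speg (-0.56), Fhod3 (-0.69) and Mybphl (-1.05) were lower, where 3.85% of all genes had such a p and 2.08% had it with a lower level. The smallest edgeR adjusted p among the 41 rounded to 1.00. Their median log2 fold change was -0.16, beside -0.06 for the 44 members. Among the 6 cardiomyocyte markers, Ryr2, the calcium release channel, was 1489 ± 538 CPM for NLC-MI against 783 ± 184 CPM for TgGRK5-MI. Its log2 fold change was -0.93 (edgeR unadjusted p = 0.00902, adjusted p = 0.968, exact permutation p = 0.0476). The other 5, Myh6 among them, had estimates from -0.48 to 0.09 with unadjusted p values of 0.264 or more.

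Some members share exon sequence with neighbours, and the strand setting of the counting is not given in the sources used here. Tmod1 overlaps Tstd2 by 1287 exon bases and Myom1 overlaps Myl12a by 207, both on opposite strands. Nexn shares 5.89% of its 50-base windows with Gm43185, Acta1 2.02% and Tnni3 1.69% with other genes, while 32 of the 44 members share none.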

How the data were processed

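Cardiomyocyte RNA was sequenced from TruSeq libraries, 5 of NLC-MI and 5 of TgGRK5-MI. The authors deposited whole-number read counts per Ensembl gene, not normalized, for 51789 genes. The submitters' processing notes name mm10, Bowtie2, RSEM 1.2.31 and DESeq2 with no role or order, and if RSEM gave the counts they were rounded before deposit. Groups came from the sample titles and every count column was used. Symbols, positions and exon lengths came from GENCODE M21 (GRCm38).

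Counts were fitted on the whole table with edgeR 4.0.16 (R 4.3.3): TMM, filterByExpr by group, which kept 15232 genes, and the two-sided quasi-likelihood test of TgGRK5-MI against NLC-MI with Benjamini-Hochberg adjustment. Single values were also tested by an exact two-sided permutation over the libraries, whose smallest p is 0.00794. It used log2 CPM (prior count 2) for a gene, summed CPM for a marker list and percentages for a pair share. DESeq2 1.42.0 and limma-voom 3.58.1 with sample quality weights, other size factors, other filters, a replicate block and each library left out were alternatives. The 7968779 to 23381527 counts per library put the limit of a count of 0, 3 counts, at 0.121 to 0.393 CPM. The scripts were tested on simulated data.

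The members and gene lists were chosen with earlier results of these data known. Described with a value in every library were members that passed a threshold, the 3 with the highest level per kilobase in each role, the 10 with the largest fold change and the 5 pairs. Protein sequences were not used here, and mitochondrially encoded genes were not analysed here.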

Additional observations from a re-analysis of the deposited data

Results flagged for a closer look

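In 7 of the 62 groups of 5 libraries examined, 1 library lay far from the other 4, by Dixon's test of a lone extreme value. Chance flags about 1 in 20 groups that are independent and normally distributed. The groups here share libraries, and some members were chosen by their p or fold change. That rate is therefore no fair yardstick for the number flagged. Neb was 24.2 CPM in NLC-MI replicate 3, where the others of its group held 5.07 to 7.65 CPM. Flnc was 1274 CPM in NLC-MI replicate 4, against 359 to 621 CPM. NLC-MI replicate 5 stood apart in 3 genes, with Tcap at 2526 CPM against 419 to 919 CPM, Tnni3 at 7553 CPM against 2595 to 3820.2 CPM and Tpm1 at 16365 CPM against 10019.8 to 11754 CPM. The same library held the highest levels of the atrial genes Bmp10 (30.9 CPM), Sln (13.8 CPM), Myl7 (64.0 CPM) and Myl4 (79.4 CPM). It also held the lowest NLC-MI level of Nppa, at 1020 CPM. The part of atrial cells in these values was not tested. TgGRK5-MI replicate 3 stood apart in 2, with Tnnt1 at 20.5 CPM against 7.29 to 10.7 CPM and Tnni3 at 7345 CPM against 2949.6 to 4137 CPM.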

How the results depend on the processing

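No member had an adjusted p under 0.10 in any of the alternatives run, 18 in number. The number of members with an unadjusted p under 0.05 was 2 by edgeR and also by DESeq2, where Flnc and Neb were the 2 in each. By limma-voom it was 5, where 11.9% of all genes had such a p, of which 2 were higher in TgGRK5-MI (Tnnc1 and Myoz2) and 3 lower (Flnc, Tnni1 and Pdlim3). In the 7 libraries of at least 15000000 counts, a choice made after seeing the data, it was 0, with 0 lower, beside 3.26% of all genes. With each library left out in turn it ran from 1 to 4, with 0 to 1 higher and 1 to 4 lower. In those fits 2.99% to 6.87% of all genes had such a p. Flnc was among the members each time, and Neb each time except without NLC-MI replicate 3 and without TgGRK5-MI replicate 2. The median log2 fold change of the members ran from -0.19 to 0.01 over these fits. The difference in their share of counts was -0.0198 percentage points and ran from -0.46 to 0.41 with each library left out in turn. Some estimates changed sign, Tcap from -0.34 among them: Tnnt2 was 0.0136, Tpm1 0.0435, Tpm2 -0.21, Tcap 0.0523 and Smyd1 0.12 with limma-voom, Actc1 was -0.0192 and Tnni3 -0.10 in the 7 libraries, and Myom2 was -0.0564 there, -0.0116 with DESeq2 and -0.0106 with RLE size factors in edgeR. The cause was not tested. With each library left out in turn, estimates that crossed 0 ran for Actc1 from -0.0164 to 0.21, Tnnt2 from -0.25 to 0.13, Tnnt1 from -0.40 to 0.13, Tnni3 from -0.12 to 0.53, Tpm1 from -0.16 to 0.0587, Tpm2 from -0.11 to 0.34, Myom2 from -0.16 to 0.21, Tcap from -0.53 to 0.34, Des from -0.16 to 0.10 and Smyd1 from -0.20 to 0.10. Of the estimates of the 26 described members under the alternatives that keep every library or use the 7, 190 kept direction and side of the threshold, 10 changed sign, 4 newly had an unadjusted p under 0.05 and 3 no longer had one. With each library left out in turn these numbers were 225, 27, 6 and 2. Over all genes, 12 had an adjusted p under 0.10 by edgeR, 69 by DESeq2 and 50 by limma-voom.

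Whether the replicate numbers pair the samples was not tested. The correlation of deviations from the group means between libraries with the same number was 0.0717, 0.662, 0.381, -0.341 and 0.0848. Its mean was 0.172, against -0.0274 between libraries of the 2 groups with different numbers. Of the 10 libraries, 2 correlated best with their own number. With the replicate number as a block, 2 members had an unadjusted p under 0.05, beside 3.97% of all genes. In that fit 8 genes in all had an adjusted p under 0.10. The alternatives without mitochondrially encoded genes and the protein identities of the pairs were not run.

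Depth limits the low members most, Tnni1 with 3 to 27 counts per library among them.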
